A study of Arabidopsis thaliana with 18 samples.

Results

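Transcript levels were set side by side in Arabidopsis thaliana seeds that had taken up water with or without 220 mM NaCl, in the genotype labelled +WT. From knowledge of the study, both genotypes of the series carry a complementing copy of FLOE1 (AT4G28300), which encodes a protein that gathers into droplets in the hydrating embryo. The copy is described as intact in +WT seeds and as lacking the segment named DS in ΔDS seeds. The genes described are the 13077 of 33602 listed whose level was at least 5 CPM (counts per 1000000 of the total) in +WT salt or in +WT imbibed seeds. Of these, 11621 reached that level in both conditions, 124 in salt alone and 1332 in imbibed seeds alone. Members of either single-condition set were kept through the condition in which they are high. The series holds 18 samples, with 3 replicates in each of 6 groups, and the comparison, which asks what salt during imbibition does to transcript levels where FLOE1 is intact, rests on 6 of them. Salt seeds of the +WT genotype were sown on agar medium with 220 mM NaCl, kept for 5 days at 4 °C in darkness and then for 4 hours in light at 22 °C. Imbibed +WT seeds had the same 5 days and 4 hours on medium with 0 mM NaCl, and dry +WT seeds were sampled without sowing. The ΔDS seeds were treated in the same 3 ways and are used here as other libraries in which the same ratio was computed. Nothing in the labels tells if the replicates are seed lots of different mother plants, if +WT is 1 transgenic line, or which promoter drives the complementing copy.

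A mature seed is dry and holds stored protein and oil, together with late embryogenesis abundant (LEA) proteins that protect cells from water loss. The hormone abscisic acid keeps this maturation programme running and holds back germination, while gibberellin promotes germination and the loosening of cell walls. Cold and light given to a wet seed raise gibberellin synthesis, and salt in the medium limits water uptake and delays or stops germination. Many abscisic acid responsive genes are switched on by bZIP factors such as ABI5, which bind the core of a promoter element named ABRE, and drought and cold responsive genes by DREB factors, which bind the DRE core.

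All values come from the authors' comparisons of ΔDS with +WT seeds, 1 table per condition, which give no values per library. The mean level of +WT seeds was recovered from the mean over both genotypes and the fold change between them, and scaled to CPM of its own total. The tables were normalised separately by the authors, so levels set across conditions are approximate, no p-value can be given, and every count below is a count of ratios past a fold. The log2 ratio is log2 of salt plus 0.5 CPM over imbibed plus 0.5 CPM, which understates the ratio of genes at low levels. The figure after ± is an approximate standard error (SE) derived from the authors' errors for 3 libraries a group, with no part for the scaling between tables. Levels are not divided by transcript length and are compared within a gene. Recovered totals came to 27508702 normalised counts per library in salt, 26099641 in imbibed and 27087318 in dry +WT seeds, and a level of 5 CPM stood for 137.5 normalised counts in salt and 130.5 in imbibed seeds. The 10 most abundant genes held 19.7% of the total in salt and 17.1% in imbibed seeds. Reads in 4 nuclear ribosomal RNA genes came to 5479 CPM in salt, 3807 CPM in imbibed and 17661 CPM in dry seeds. FLOE1 itself stood at 501 CPM in salt, 536 CPM in imbibed and 306 CPM in dry +WT seeds, against 17.5 CPM in salt and 12.7 CPM in imbibed ΔDS seeds. These are counts over the whole gene, and the cause of the lower level in the seeds labelled ΔDS was not tested. The log2 ratio of FLOE1, salt to imbibed, in +WT seeds was -0.10 ± 0.11, and its relatives FLOE2 (AT5G14540) and FLOE3 (AT3G01560) were at -0.41 ± 0.11 and -0.02 ± 0.12.

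With salt, +WT seeds held more transcript of a set of genes of the mature seed and far less of many genes that are high in imbibed seeds. Levels were at least 2-fold higher in salt for 294 genes (2.25% of 13077) and at least 2-fold lower for 1361 (10.4%). A 4-fold ratio was passed by 28 genes (0.214%) upward and 283 (2.16%) downward, and ratios ran from -7.49 to 2.77. The median gene lay at -0.31, or 1.24-fold lower in salt, and the upper quartile at -0.03, so that most genes had ratios below 0. Measured against the median gene, 517 genes (3.95%) were at least 2-fold higher and 726 (5.55%) at least 2-fold lower. Of the higher genes 249 were at 5 CPM or more in both conditions, the other 45 having passed the level filter through salt seeds. Of the lower genes 672 were at 5 CPM or more in both, the other 689 having passed it through imbibed seeds. The median approximate SE was 0.13, and 8715 genes (66.6%) had a ratio beyond 2 SE. In ΔDS seeds the same ratio passed 2-fold upward for 767 of the 13077 genes (5.87%) and downward for 2247 (17.2%). The 281 genes past 2-fold upward in both genotypes were 95.6% of the +WT set and 36.6% of the ΔDS set. Downward, 1238 genes were shared, 91.0% of the +WT set and 55.1% of the ΔDS set. The difference between genotypes was not tested here. In whole seeds, fewer cells of a type and less RNA per cell cannot be told apart.

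**Figure D1:**
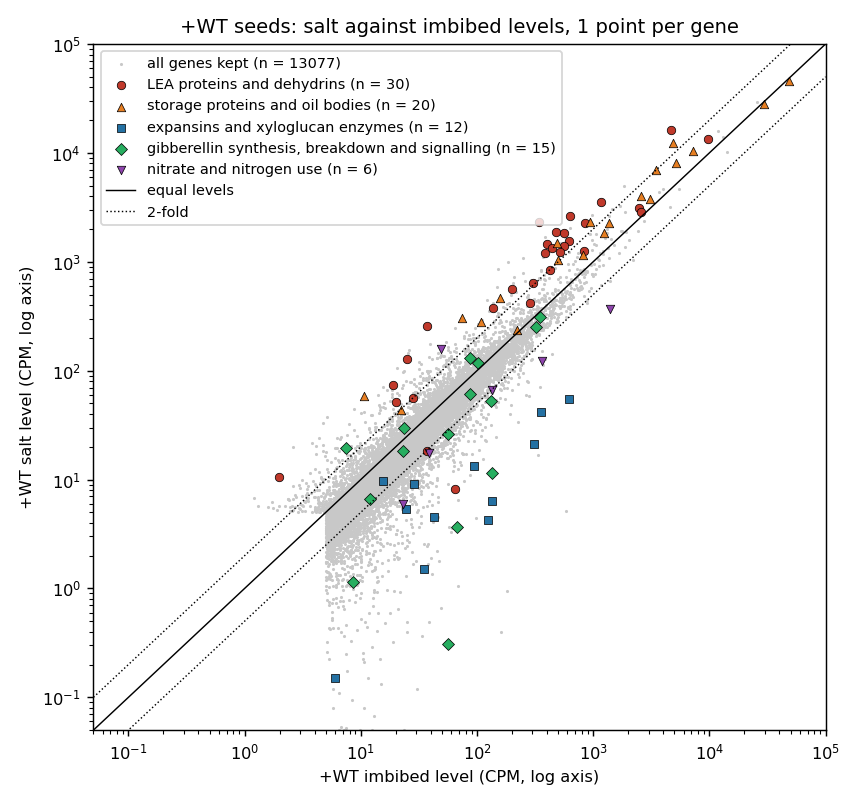
Level of each of 13077 genes in +WT salt seeds (vertical, CPM, log axis) against +WT imbibed seeds (horizontal, CPM, log axis), with 5 gene lists marked and levels under 0.05 drawn at the edge. LEA and storage genes lie on or above the line of equal levels with few exceptions, and expansin genes lie below it.

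Where a gene stood in dry +WT seeds, whose libraries enter neither condition of the ratio, went with its ratio of salt to imbibed. The 106 genes over 1000 CPM in dry seeds had a median log2 ratio of 0.97, with 48.1% at least 2-fold higher in salt and 0 at least 2-fold lower. Between 100 and 1000 CPM in dry seeds the median of 1114 genes was 0.12 and 11.0% were at least 2-fold higher. At 10 to 100 CPM the median of 6661 genes was -0.20, and at 1 to 10 CPM that of 4382 genes was -0.53. The 814 genes under 1 CPM in dry seeds had a median of -1.29, with 67.9% at least 2-fold lower and 0 at least 2-fold higher. Such genes were kept through their level in seeds that had taken up water, which favours those high in imbibed seeds, and the shares of the lowest class carry that choice. Summed over the 294 genes at least 2-fold higher, levels came to 135612 CPM in salt, 49515 CPM in imbibed and 280264 CPM in dry seeds. Over the 1361 lower genes the sums were 17502 CPM in salt, 51463 CPM in imbibed and 7554 CPM in dry seeds.

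**Figure D2:**
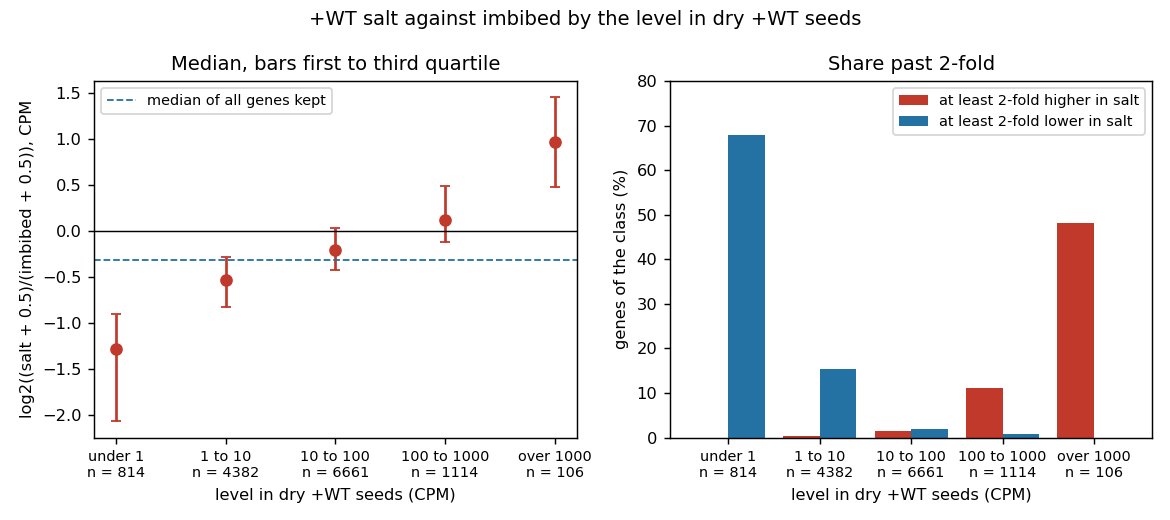
Genes grouped by their level in dry +WT seeds (horizontal, CPM), with the median and quartiles of the log2 ratio of salt to imbibed on the left and the percentage past 2-fold in each direction on the right. The median climbs with dry level, from -1.29 for genes under 1 CPM to 0.97 for genes over 1000 CPM.

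LEA proteins and dehydrins, which shield membranes and proteins during drying, made up the list with the highest median. Of 34 genes listed 30 were kept, 22 of them at least 2-fold higher in salt, beside 2.25% of all genes kept, and 2 at least 2-fold lower. Of the 30, 1 had passed the level filter through salt seeds alone. The list median was 1.43 in +WT seeds, beside -0.31 over all genes, and 2.25 in ΔDS seeds. Together the 34 genes came to 63106 CPM in salt, 28780 CPM in imbibed and 113172 CPM in dry seeds. The dehydrin gene LTI30 (AT3G50970), at 18940643 to 18941611 of chromosome 3 in TAIR10.1, had the highest ratio of any gene, at 259 CPM in salt, 37.5 CPM in imbibed and 709 CPM in dry seeds, a log2 ratio of 2.77 ± 0.16. AT2G42560, with an LEA domain, stood at 2309 CPM in salt, 340.3 CPM in imbibed and 4574 CPM in dry seeds (2.76 ± 0.41). The seed maturation gene AT3G22490 had 128 CPM in salt, 24.8 CPM in imbibed and 1382 CPM in dry seeds (2.35 ± 0.23). In all 3 genes the salt level lay between the imbibed and the dry level. RAB18 (AT5G66400), a dehydrin gene long used as a marker of abscisic acid response, held 16217 CPM in salt, 4658 CPM in imbibed and 26987 CPM in dry seeds (1.80 ± 0.34). The group 1 LEA genes GEA6 (AT2G40170, also named EM6) and EM1 (AT3G51810) had ratios of 1.41 ± 0.41 and 0.59 ± 0.42. M17 (AT2G41260) was among the least changed members, at 13531 CPM in salt against 9705 CPM in imbibed seeds (0.48 ± 0.36). SAG21 (AT4G02380), an LEA gene known from senescing leaves and oxidative stress, ran the other way, with 8.18 CPM in salt, 64.3 CPM in imbibed and 2.12 CPM in dry seeds (-2.90 ± 0.16). The second lower member, AT1G54410, was at 18.2 CPM in salt against 37.4 CPM in imbibed seeds (-1.02 ± 0.18), and both lower members were under 3 CPM in dry seeds. A further dehydrin gene, COR47, was listed with the cold regulated genes and is not in these counts. Its ratio of -3.04 ± 0.27 was below that of SAG21.

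Storage protein and oil body genes were higher in salt seeds to a smaller extent, and the most abundant of them hardly differed. All 20 listed genes were kept, 9 at least 2-fold higher and 0 at least 2-fold lower, beside 2.25% and 10.4% of all genes kept. The median was 0.83 in +WT and 1.82 in ΔDS seeds. Their levels summed to 130753 CPM in salt, 110908 CPM in imbibed and 96850 CPM in dry seeds. The cruciferin genes CRA1 (AT5G44120) and CRU3 (AT4G28520), which encode 12S globulins, stood at 45566 and 27927 CPM in salt, 48794 and 29659 CPM in imbibed and 11143 and 5605 CPM in dry seeds. Their ratios of salt to imbibed, -0.10 ± 0.19 and -0.09 ± 0.19, were within 1 SE of 0, and both stood several times above their dry level in both conditions. The other cruciferin gene, CRU2 (AT1G03880), had 1842 CPM in salt, 1246 CPM in imbibed and 5769.5 CPM in dry seeds (0.56 ± 0.19). The cupin gene AT1G03890, next to CRU2 on chromosome 1, had the highest ratio of the list, at 58.0 CPM in salt, 10.6 CPM in imbibed and 285 CPM in dry seeds (2.40 ± 0.28). Another cupin gene, AT2G18540, had 304 CPM in salt against 74.3 CPM in imbibed seeds (2.03 ± 0.21). Ratios of the 2S albumin genes ran from 0.10 ± 0.20 for SESA1 (AT4G27140) to 1.00 ± 0.39 for SESA5 (AT5G54740), and the handling of reads that fit several of these similar copies is not stated in the labels or headers. Among oil body genes, which coat lipid droplets, the oleosin gene OLEO2 (AT5G40420) had 2319 CPM in salt against 934 CPM in imbibed seeds (1.31 ± 0.21). OLEO1 (AT4G25140) was at 8062 CPM in salt against 5130.4 CPM in imbibed seeds (0.65 ± 0.20). The caleosin gene ATS1 (AT4G26740) had 1476 CPM in salt, 488 CPM in imbibed and 559 CPM in dry seeds (1.60 ± 0.21). The peroxygenase gene ATPXG2 (AT5G55240) was at 1.55 ± 0.21. The steroleosin gene HSD1 is present as a pair of near-identical copies, and AT5G50600 had 12412 CPM in salt against 4887 CPM in imbibed seeds (1.34 ± 0.34).

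**Figure D3:**
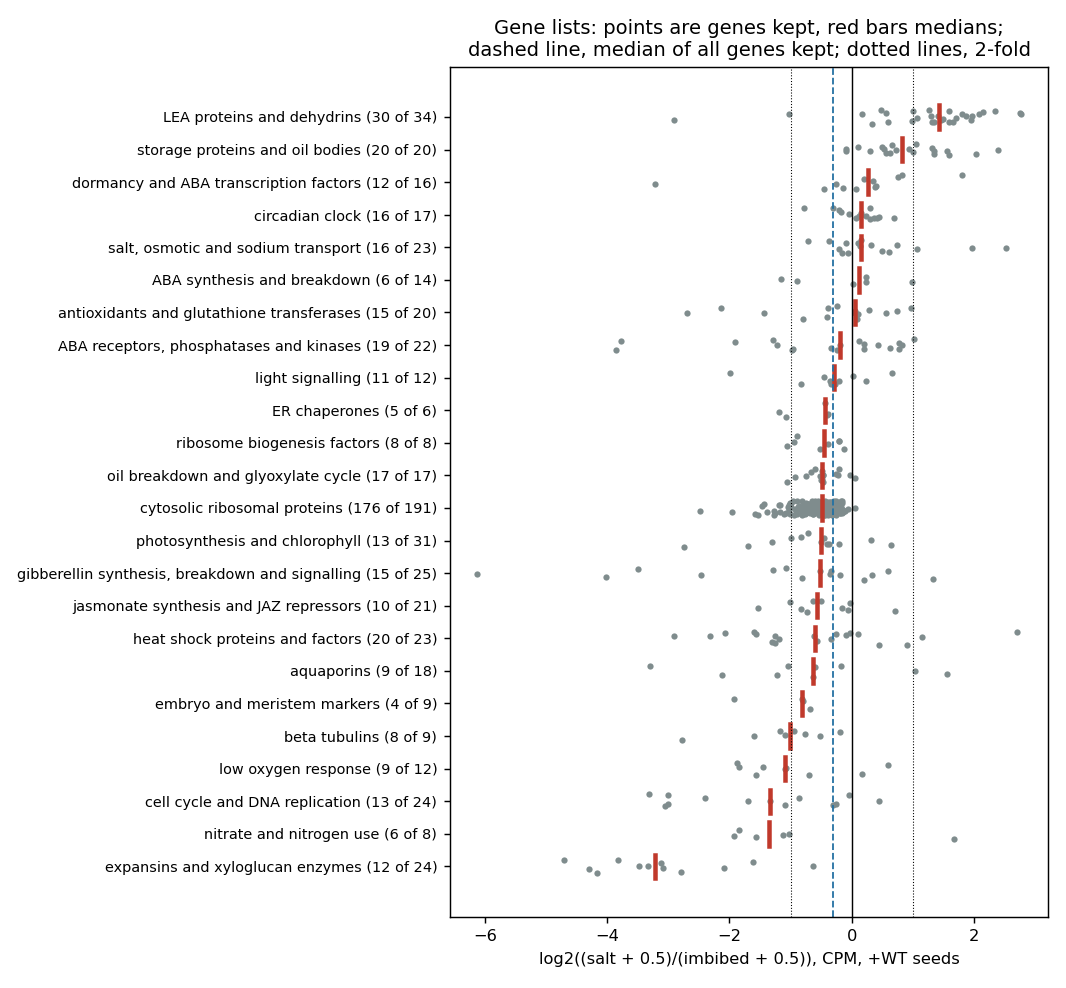
Log2 ratio of salt to imbibed in +WT seeds (horizontal) for the kept genes of the 24 lists with 4 or more of them, 1 point per gene, with list medians as red bars and the median of all genes dashed. LEA genes have the highest median (1.43) and expansins and xyloglucan enzymes the lowest (-3.23).

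Promoters were read because many members of the maturation lists had high ratios together. The 250 bases before the annotated start were read from the RefSeq TAIR10.1 genome for 12895 protein-coding genes kept, and short motifs were searched on both strands, overlapping matches counting once. The ABRE core (ACGTG) was held by 56.0% of 293 promoters of genes at least 2-fold higher in salt, 24.1% of 1337 at least 2-fold lower, 23.6% of all 12895 kept and 22.9% of all 27444 protein-coding promoters. Promoters with 2 or more copies made up 29.0% of the 2-fold higher set, 3.96% of the 2-fold lower set and 5.99% of all kept. The G box (CACGTG), which contains the ABRE core on both strands, was held by 30.0% of the higher set, 7.78% of the lower set and 8.29% of all kept. The DRE core (CCGAC) was held by 25.6% of the higher set, 9.80% of the lower set and 14.0% of all kept. The site II element (TGGGCC), found before many ribosomal and cell cycle genes, was held by 12.6% of the higher set, 14.9% of the lower set and 20.2% of all kept. The evening element (AAAATATCT) was in 4.10%, 2.24% and 2.44% of these 3 sets in the same order, and the telo box (AAACCCTA) in 2.05%, 3.89% and 4.06%. Median log2 ratios were -0.33 over 9847 genes without an ABRE core, -0.28 over 2276 with 1 copy and -0.05 over 772 with 2 or more. A match is a run of letters and not a shown binding site.

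**Figure D4:**
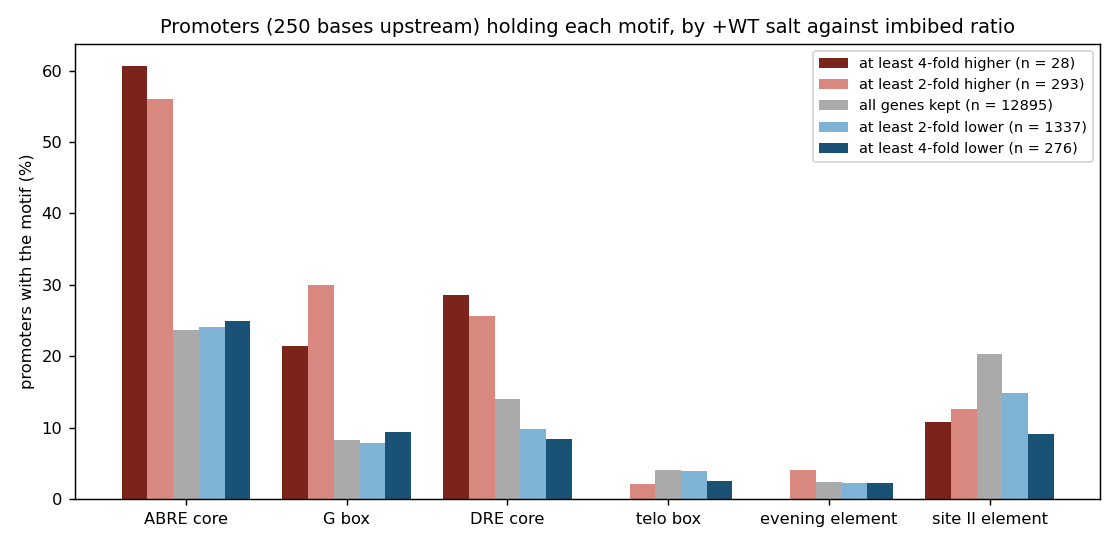
Percentage of promoters (250 bases upstream) that hold each of 6 motifs, by class of the +WT salt to imbibed ratio. The ABRE core stands at 60.7% and 56.0% in the 4-fold and 2-fold higher classes, against 23.6% of all genes kept.

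The promoters printed are those of the strongly higher genes with the most copies of each core, followed by that of a strongly lower gene that holds neither. All are from RefSeq TAIR10.1, written 5′ to 3′ on the strand of the gene and ending at the base before its annotated start. Capitals mark the ABRE core, on either strand, in AT2G42560 (chr2:17716913-17717162, minus strand) and in LTI65 (chr5:21236771-21237020, plus strand), which also holds 1 DRE core left in lower case.
AT2G42560: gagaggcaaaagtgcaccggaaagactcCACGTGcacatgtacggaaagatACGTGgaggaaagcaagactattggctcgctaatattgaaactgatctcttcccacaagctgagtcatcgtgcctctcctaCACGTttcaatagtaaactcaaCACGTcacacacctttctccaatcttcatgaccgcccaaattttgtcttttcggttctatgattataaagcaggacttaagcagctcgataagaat
LTI65: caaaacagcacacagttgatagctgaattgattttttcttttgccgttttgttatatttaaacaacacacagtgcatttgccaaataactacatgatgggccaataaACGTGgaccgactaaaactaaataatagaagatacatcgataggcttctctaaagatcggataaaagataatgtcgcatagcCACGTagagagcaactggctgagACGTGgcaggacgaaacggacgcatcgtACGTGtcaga
Capitals mark the DRE core in LTI30 (chr3:18940393-18940642, plus strand) and in LTI78 (chr5:21240467-21240716, plus strand), which lies next to LTI65 and is also named RD29A.
LTI30: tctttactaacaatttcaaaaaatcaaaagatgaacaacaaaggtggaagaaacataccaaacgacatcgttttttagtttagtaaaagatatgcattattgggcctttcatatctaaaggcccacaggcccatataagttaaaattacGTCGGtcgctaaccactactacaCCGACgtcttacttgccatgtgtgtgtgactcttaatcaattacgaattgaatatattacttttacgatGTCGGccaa
LTI78: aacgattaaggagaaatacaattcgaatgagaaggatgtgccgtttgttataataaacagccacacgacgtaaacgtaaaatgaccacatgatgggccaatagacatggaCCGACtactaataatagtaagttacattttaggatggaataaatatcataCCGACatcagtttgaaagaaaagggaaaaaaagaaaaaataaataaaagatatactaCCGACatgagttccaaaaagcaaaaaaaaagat
No core was found, and none is marked, in the promoter of the expansin gene EXPA8 (chr2:16950706-16950955, minus strand).
EXPA8: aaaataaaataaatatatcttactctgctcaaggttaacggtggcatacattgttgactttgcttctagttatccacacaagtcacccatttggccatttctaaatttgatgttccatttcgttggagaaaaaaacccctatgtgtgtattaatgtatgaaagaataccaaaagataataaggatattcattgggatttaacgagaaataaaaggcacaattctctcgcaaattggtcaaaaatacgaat

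LTI78 and LTI65, neighbours known as drought, cold and abscisic acid responsive genes, were both higher in salt. LTI78 (AT5G52310) had 107 CPM in salt, 20.4 CPM in imbibed and 94.1 CPM in dry seeds (2.36 ± 0.17), so that its salt level lay above the dry one. LTI65 (AT5G52300) had 585 CPM in salt, 149.6 CPM in imbibed and 1992 CPM in dry seeds (1.96 ± 0.24). Of 23 genes listed for salt and osmotic response and sodium transport 16 were kept, with a median of 0.15. At least 2-fold higher were 3 and at least 2-fold lower 0, beside 2.25% and 10.4% of all genes kept. The 3 higher genes were LTI65, GolS2 and RD26. GolS2 (AT1G56600), which makes galactinol for raffinose sugars, stood at 153 CPM in salt, 26.2 CPM in imbibed and 931 CPM in dry seeds (2.52 ± 0.24). RD26 (AT4G27410), a NAC factor of drought response, had 9.11 CPM in salt against 4.07 CPM in imbibed seeds (1.07 ± 0.29). RD26 passed the level filter through salt seeds alone, where it is high. The sodium export pathway showed smaller ratios, with the exporter SOS1 (AT2G01980) at -0.16 ± 0.12, its kinase SOS2 (AT5G35410) at -0.71 ± 0.21 and the calcium sensor SOS3 (AT5G24270) at 0.32 ± 0.16. The vacuolar sodium exchanger NHX1 (AT5G27150) had 20.3 CPM in salt against 21.6 CPM in imbibed seeds (-0.09 ± 0.11). P5CS2 (AT3G55610), of proline synthesis, was at 0.16 ± 0.10, and the kept drought regulator DREB2A (AT5G05410) at 0.14 ± 0.44. P5CS1, the sodium transporter HKT1 and 5 other listed genes were under 5 CPM in both conditions. Of 9 cold regulated genes 2 were kept, LTI78 and the dehydrin gene COR47 (AT1G20440), which stood at 1.88 CPM in salt against 19.1 CPM in imbibed seeds (-3.04 ± 0.27). COR47 passed the filter through imbibed seeds alone.

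Abscisic acid genes did not move as 1 group. Among 12 of 16 dormancy and abscisic acid transcription regulators kept, with a median of 0.27, DOG1 (AT5G45830), a main determinant of seed dormancy, had the highest ratio. It stood at 134 CPM in salt, 38.3 CPM in imbibed and 32.5 CPM in dry seeds (1.80 ± 0.18), and at 150.2 CPM in salt against 16.5 CPM in imbibed ΔDS seeds. AT4G18660, annotated as a delay of germination protein, had 44.3 CPM in salt, 8.67 CPM in imbibed and 29.0 CPM in dry seeds (2.29 ± 0.22). Both were thus above their dry level in salt. ABI5 (AT2G36270) had 282 CPM in salt, 159 CPM in imbibed and 1029.6 CPM in dry seeds (0.82 ± 0.15). ABI3 (AT3G24650), a master factor of seed maturation, was at 482 CPM in salt, 577 CPM in imbibed and 150.4 CPM in dry seeds (-0.26 ± 0.09). ABI4 (AT2G40220), an AP2 factor of abscisic acid and sugar response, had the lowest ratio of the list, at 4.54 CPM in salt against 46.3 CPM in imbibed seeds (-3.21 ± 0.21). It passed the level filter through imbibed seeds alone. FUS3 (AT3G26790) and EEL (AT2G41070), further maturation regulators, were at -0.45 ± 0.19 and -0.14 ± 0.18, and E12A11 (AT1G18100, also named MFT) was at 0.76 ± 0.17. Of the 12, 4 had ratios below 0, where most genes kept lay. The median gene lay below 10 of the 12, and the list median relative to it was 0.58. On that scale 3 were at least 2-fold higher and 1 at least 2-fold lower, beside 3.95% and 5.55% of all genes kept. In the signalling chain, receptors bind the hormone and hold phosphatases that would silence the SnRK2 kinases. Of its 22 genes 19 were kept, 1 at least 2-fold higher and 5 at least 2-fold lower, beside 2.25% and 10.4% of all genes kept. Relative to the median gene the balance was the other way, with 4 at least 2-fold higher and 3 at least 2-fold lower. The median was -0.20 by total and 0.11 relative to the median gene. Of the 8 receptors kept, 6 had ratios below 0, as did most genes kept, and 2 had ratios above 0. Of the 6, 4 were at least 2-fold lower, beside 10.4% of all genes kept. PYL4 (AT2G38310) had 3.68 CPM in salt against 56.9 CPM in imbibed seeds (-3.78 ± 0.19). PYR1 (AT4G17870) had 30.6 CPM in salt against 116 CPM in imbibed seeds (-1.91 ± 0.11). PYL6 (AT2G40330) and PYL5 (AT5G05440) were at -3.86 ± 0.58 and -1.30 ± 0.10, PYL6 with under 1 CPM in salt. PYL4 and PYL6 passed the filter through imbibed seeds alone. PYL7 (AT4G01026) had 6.36 CPM in salt against 3.53 CPM in imbibed seeds (0.77 ± 0.24), and RCAR1 (AT1G01360, also named PYL9) was at 0.19 ± 0.18. PYL7 passed the filter through salt seeds alone. Phosphatases ran both ways, from ABI1 (AT4G26080) at -1.23 ± 0.13 to the seed phosphatase AHG1 (AT5G51760) at 0.77 ± 0.22 and HAI3 (AT2G29380) at 1.01 ± 0.13. The kinases SNRK2.2 (AT3G50500) and SNRK2.3 (AT5G66880) were at -0.20 ± 0.08 and -0.34 ± 0.09. Of 14 genes of abscisic acid synthesis and breakdown 6 were kept, with a median of 0.12. At least 2-fold higher were 0 and at least 2-fold lower 1 (16.7%, beside 10.4% of all genes kept). The lower gene was ABA4 (AT1G67080), a synthesis gene, with 4.83 CPM in salt against 11.4 CPM in imbibed seeds (-1.16 ± 0.16), which passed the filter through imbibed seeds alone. ABA1 (AT5G67030), of the first step of synthesis from zeaxanthin, had 248 CPM in salt against 125 CPM in imbibed seeds (0.98 ± 0.18). CYP707A2 (AT2G29090), the hydroxylase that breaks the hormone down in seeds, had 31.1 CPM in salt against 58.1 CPM in imbibed seeds (-0.89 ± 0.14), and NCED9 (AT1G78390), a cleavage enzyme of synthesis, was at 0.24 ± 0.39.

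Both kept enzymes of the last step of gibberellin activation were far lower in salt. GA3OX2 (AT1G80340) stood at 0.311 CPM in salt, 56.2 CPM in imbibed and 0.0134 CPM in dry seeds, a log2 ratio of -6.13 ± 0.67. GA3OX1 (AT1G15550) had 3.69 CPM in salt, 67.6 CPM in imbibed and 0.0116 CPM in dry seeds (-4.02 ± 0.21). The step before, GA20OX3 (AT5G07200), did not follow them, at 117 CPM in salt against 102 CPM in imbibed seeds (0.20 ± 0.13), and was at 0.627 CPM in dry seeds. The inactivating oxidase GA2OX2 (AT1G30040) had 19.4 CPM in salt against 7.47 CPM in imbibed seeds (1.32 ± 0.19). The receptors GID1A (AT3G05120) and GID1C (AT5G27320) were at 0.59 ± 0.15 and 0.33 ± 0.17. Of the DELLA repressors, RGA1 (AT2G01570) and RGL3 (AT5G17490) were at -1.29 ± 0.11 and -1.07 ± 0.13, and RGL2 (AT3G03450), the main DELLA of germination, had 253 CPM in salt, 323 CPM in imbibed and 8.65 CPM in dry seeds (-0.35 ± 0.07). GASA6 (AT1G74670), a gibberellin induced peptide gene, had 11.5 CPM in salt against 135 CPM in imbibed seeds (-3.50 ± 0.23). GASA2 (AT4G09610) of the same family was among the 15 highest ratios, at 145 CPM in salt, 25.4 CPM in imbibed and 298 CPM in dry seeds (2.49 ± 0.18). Over the 15 of 25 gibberellin genes kept, the median was -0.51. At least 2-fold higher was 1 and at least 2-fold lower were 6, beside 2.25% and 10.4% of all genes kept. Of the 6, 3 had passed the filter through imbibed seeds alone, both GA3OX genes among them.

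Cell wall loosening genes had the lowest median of all 27 lists. Expansins and xyloglucan enzymes were lower in salt for all 12 kept of 24 listed, 11 at least 2-fold, beside 10.4% of all genes kept. Their median was -3.23, and 4 of the 12 had passed the filter through imbibed seeds alone. The 24 genes summed to 177 CPM in salt, 1807 CPM in imbibed and 7.98 CPM in dry seeds. EXPA1 (AT1G69530) had 54.8 CPM in salt, 619 CPM in imbibed and 0.321 CPM in dry seeds (-3.48 ± 0.24). EXPA8 (AT2G40610) was the most changed expansin, with 4.28 CPM in salt against 125 CPM in imbibed seeds (-4.71 ± 0.24). EXPA2 (AT5G05290), an expansin of the germinating seed, was at 21.2 CPM in salt against 306 CPM in imbibed seeds (-3.82 ± 0.34). EXPA9 (AT5G02260) and XTH31 (AT3G44990) were at -4.29 ± 0.33 and -4.16 ± 0.29. TCH4 (AT5G57560), a touch induced xyloglucan enzyme, was the least changed, at 9.80 CPM in salt against 15.5 CPM in imbibed seeds (-0.63 ± 0.20). The expansin-like gene EXLA1 (AT3G45970) was not in the list and stood at 21.5 CPM in salt, 3.83 CPM in imbibed and 22.5 CPM in dry seeds (2.35 ± 0.23). It passed the filter through salt seeds alone.

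The 15 lowest ratios among protein-coding genes of at least 20 CPM, beyond 2 SE and with the same direction in ΔDS seeds, were led by genes of wall sugars, sugar transfer and protein turnover. The beta-xylosidase gene BXL2 (AT1G02640), at 564018 to 567771 of chromosome 1 in TAIR10.1, had 0.395 CPM in salt, 160.3 CPM in imbibed and 0.998 CPM in dry seeds (-7.49 ± 0.50). DIN10 (AT5G20250), of the raffinose synthase family, had 0.955 CPM in salt against 182 CPM in imbibed seeds (-6.97 ± 0.34). The cysteine proteinase gene CP1 (AT4G36880) had 5.14 CPM in salt against 578 CPM in imbibed seeds (-6.68 ± 0.33). The carboxypeptidase-like genes scpl44 (AT1G43780) and scpl48 (AT3G45010) were at -5.49 ± 0.31 and -5.32 ± 0.37, the laccase gene LAC8 (AT5G01040) at -5.65 ± 0.67, and the carbonic anhydrase gene BCA4 (AT1G70410) at -5.42 ± 0.38. The remaining ratios were -5.30 ± 0.39 for the cytochrome P450 gene CYP71B2 (AT1G13080), -4.81 ± 0.59 for the NAD(P)H dehydrogenase gene NDB3 (AT4G21490) and -4.69 ± 0.58 for the transporter gene ABCG35 (AT1G15210). PAP17 (AT3G17790), a purple acid phosphatase gene, was at -4.50 ± 0.33 and the B12D gene AT3G48140 at -4.38 ± 0.28. The beta-glucosidase gene PYK10 (AT3G09260) had 23.8 CPM in imbibed seeds and under 1 normalised count in salt, and no ratio is given for it. All 15 were under 2 CPM in dry seeds. All but CP1 were also under 5 CPM in salt, so that they passed the level filter through imbibed seeds alone, where they are high.

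**Figure D5:**
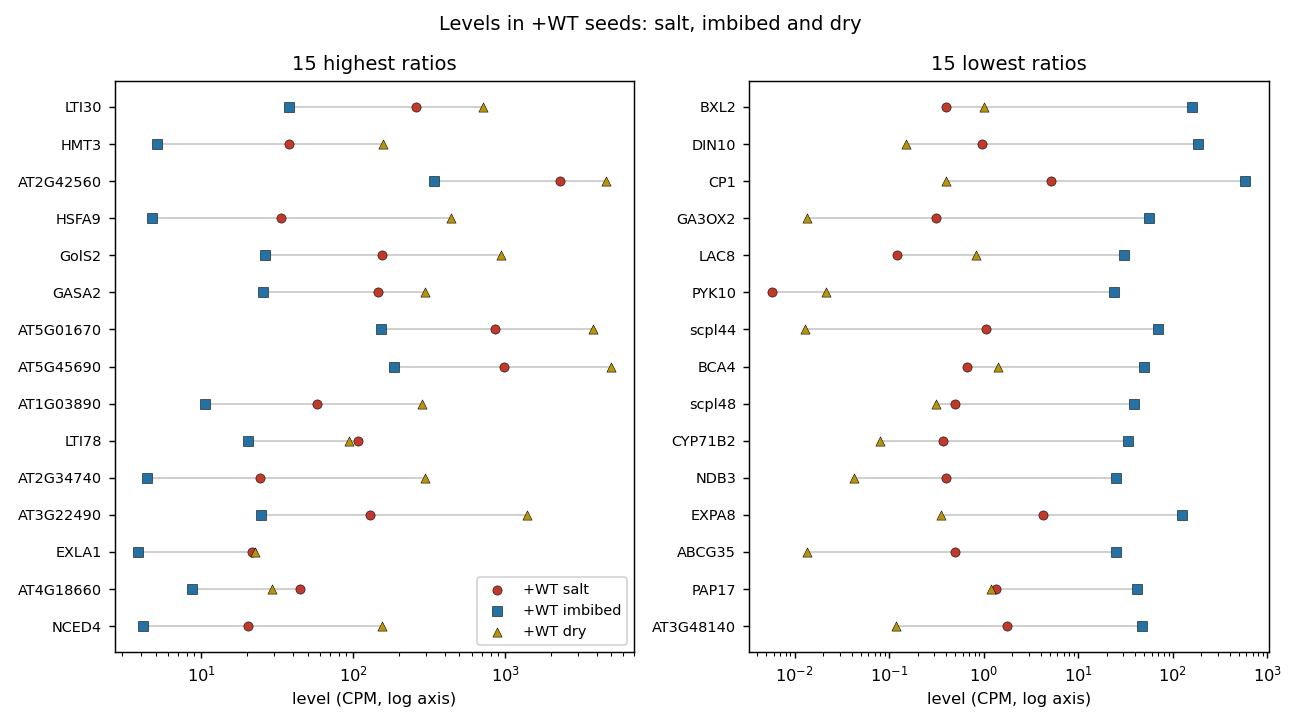
Levels (CPM, log axis) in salt, imbibed and dry +WT seeds of the 15 genes with the highest (left) and the 15 with the lowest (right) ratios. On the left the salt level lies between imbibed and dry for all but LTI78 and AT4G18660, where it is the highest, and on the right imbibed is far above both others. All on the right but CP1 passed the level filter through imbibed seeds alone. HSFA9, AT2G34740, EXLA1 and NCED4 on the left passed it through salt seeds alone.

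Of the 15 highest ratios, those not yet named include genes of methionine synthesis, stress transcription and carotenoid cleavage. HMT3 (AT3G22740), a homocysteine methyltransferase gene, had 37.8 CPM in salt, 5.13 CPM in imbibed and 156 CPM in dry seeds (2.77 ± 0.22). HSFA9 (AT5G54070), a heat shock factor of maturing seeds, had 33.2 CPM in salt, 4.70 CPM in imbibed and 438 CPM in dry seeds (2.70 ± 0.24). The oxidoreductase gene AT5G01670 had 852 CPM in salt, 152 CPM in imbibed and 3767 CPM in dry seeds (2.48 ± 0.20). AT5G45690, annotated with a domain of unknown function, was at 2.41 ± 0.36, the PP2C phosphatase gene AT2G34740 at 2.35 ± 0.34 and NCED4 (AT4G19170), a carotenoid cleavage gene, at 2.17 ± 0.18. HSFA9, AT2G34740 and NCED4 were under 5 CPM in imbibed seeds and passed the level filter through salt seeds alone.

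Genes of nitrate use were lower in salt, apart from an asparagine synthetase. Of 8 listed 6 were kept, with a median of -1.35. At least 2-fold lower were 5 and at least 2-fold higher 1, beside 10.4% and 2.25% of all genes kept. Relative to the median gene 3 were at least 2-fold lower and 1 at least 2-fold higher. The nitrate reductase gene NIA1 (AT1G77760) had 371 CPM in salt, 1406 CPM in imbibed and 11.7 CPM in dry seeds (-1.92 ± 0.08). NIR1 (AT2G15620), encoding nitrite reductase, had 123 CPM in salt against 365 CPM in imbibed seeds (-1.56 ± 0.09), and the transporter and sensor NRT1.1 (AT1G12110) had 66.2 CPM in salt against 136 CPM in imbibed seeds (-1.03 ± 0.08). ASN1 (AT3G47340), an asparagine synthetase gene induced by darkness and low sugar, had 158 CPM in salt, 49.0 CPM in imbibed and 853 CPM in dry seeds (1.68 ± 0.21). The vacuolar seed aquaporins TIP3;1 (AT1G73190) and BETA-TIP (AT1G17810) were higher in salt, at 3058 and 1705 CPM in salt, 1486 and 576 CPM in imbibed seeds and ratios of 1.04 ± 0.20 and 1.56 ± 0.34. All 7 kept aquaporins of the plasma membrane had ratios below 0, 4 of them at least 2-fold, with PIP3 (AT4G35100) at 6.48 CPM in salt against 68.4 CPM in imbibed seeds (-3.30 ± 0.19), and PIP1;5 (AT4G23400), at -0.17 ± 0.18, lay above the median gene. Of those 4, PIP1A (AT3G61430), PIP1C (AT1G01620) and PIP2A (AT3G53420) passed the filter through imbibed seeds alone, and relative to the median gene 2 of the 7 were at least 2-fold lower. PIP2A was at -1.04 ± 0.18 in +WT and at 0.53 ± 0.18 in ΔDS seeds. Of 12 low oxygen genes 9 were kept, 6 at least 2-fold lower, beside 10.4% of all genes kept, with a median of -1.09. Relative to the median gene 4 were at least 2-fold lower. LBD41 (AT3G02550), counted in the 6, was at -1.07 ± 0.80, within 2 SE of 0. Haemoglobin HB1 (AT2G16060) had 16.9 CPM in salt against 62.2 CPM in imbibed seeds (-1.85 ± 0.20) and the ethylene receptor gene ETR2 (AT3G23150) 22.6 CPM in salt against 84.5 CPM in imbibed seeds (-1.88 ± 0.14). Fermentation genes ran both ways. ADH1 (AT1G77120) and PDC2 (AT5G54960) were at 0.17 ± 0.14 and 0.60 ± 0.18, and both were highest in dry seeds, at 863 and 361 CPM. AT4G33070 (also named PDC1), counted in the 6, had 7.87 CPM in salt, 22.4 CPM in imbibed and 13.0 CPM in dry seeds (-1.45 ± 0.67).

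Growth genes were lower to differing degrees. Of 24 cell cycle and DNA replication genes 13 were kept, 7 of them through imbibed seeds alone, with a median of -1.33. At least 2-fold lower were 8, beside 10.4% of all genes kept. Those 7 were all among the 8 lower genes, and the filter had chosen them for being high in imbibed seeds. Of the 6 genes at 5 CPM or more in both conditions only TSO2 was at least 2-fold lower. The 7 hold all 6 kept subunits of the MCM helicase, which opens DNA for replication, MCM2 (AT1G44900) with 0.81 CPM in salt against 12.6 CPM in imbibed seeds (-3.32 ± 0.33) and MCM5 (AT2G07690) the least changed (-1.70 ± 0.20). TSO2 (AT3G27060), a small subunit of ribonucleotide reductase, had 18.4 CPM in salt against 39.7 CPM in imbibed +WT seeds (-1.09 ± 0.12), and 464 CPM in salt against 374 CPM in imbibed ΔDS seeds (0.31 ± 0.12). The cyclin dependent kinase inhibitor KRP6 (AT3G19150) was at 0.44 ± 0.11 and the kinase CDC2 (AT3G48750) at -0.26 ± 0.09. Of 8 kept beta tubulins 4 were at least 2-fold lower, beside 10.4% of all genes kept, with a median of -1.01. TUB5 (AT1G20010) had 2.61 CPM in salt against 20.7 CPM in imbibed seeds (-2.77 ± 0.24) and TUB8 (AT5G23860) was at -1.60 ± 0.27, both having passed the filter through imbibed seeds alone. They were the 2 that stayed at least 2-fold lower relative to the median gene, while TUB3 (AT5G62700) and TUB4 (AT5G44340), at -1.17 ± 0.13 and -1.09 ± 0.08, did not. Cytosolic ribosomal proteins differed less but nearly all the same way. Of 191 genes 176 were kept, 175 had a ratio below 0 and 20 (11.4%, beside 10.4% of all genes kept) were at least 2-fold lower, with a median of -0.48 in +WT and -0.95 in ΔDS seeds. Relative to the median gene 37 of the 176 lay above it, 7 were at least 2-fold lower, and the list median was -0.17. Their levels summed to 30446 CPM in salt, 41344 CPM in imbibed and 4697 CPM in dry seeds. The 8 ribosome biogenesis factors had a median of -0.45, from the fibrillarin gene FIB2 (AT4G25630) at -1.06 ± 0.15 to the pseudouridine synthase gene NAP57 (AT3G57150) at -0.13 ± 0.10.

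Oil breakdown genes, which turn stored oil into sugar after germination, were mildly lower. All 17 were kept, 16 had a ratio below 0 and the median was -0.48, or -0.16 relative to the median gene. The 1 gene at least 2-fold lower made up 5.88%, below the 10.4% of all genes kept. Isocitrate lyase ICL (AT3G21720) had 10137 CPM in salt, 14039 CPM in imbibed and 5364 CPM in dry seeds (-0.47 ± 0.07), and malate synthase MLS (AT5G03860) was at -0.22 ± 0.06. The gene at least 2-fold lower was PMDH2 (AT5G09660), a peroxisomal malate dehydrogenase, with 6.32 CPM in salt against 13.8 CPM in imbibed seeds (-1.07 ± 0.17), and the peroxisomal citrate synthase gene CSY2 (AT3G58750) was at -0.93 ± 0.13. PCK1 (AT4G37870), of gluconeogenesis, had 3203 CPM in salt against 4599 CPM in imbibed seeds (-0.52 ± 0.08). Of 31 photosynthesis genes 13 were kept, 5 of them through imbibed seeds alone, with a median of -0.50. At least 2-fold lower were 3 (23.1%, beside 10.4% of all genes kept). The 3 were the protochlorophyllide reductase genes PORB (AT4G27440) at -1.69 ± 0.31 and PORC (AT1G03630) at -1.31 ± 0.22, and the Rubisco small subunit gene RBCS3B (AT5G38410) at -2.74 ± 0.43, and all 3 passed the filter only through imbibed seeds, where they are high. Of 11 kept light signalling genes 1 was at least 2-fold lower (9.09%, beside 10.4% of all genes kept). It was SPT (AT4G36930), a factor that acts on germination in response to light and cold, with 5.34 CPM in salt against 22.7 CPM in imbibed seeds (-1.99 ± 0.20). SOM (AT1G03790), a zinc finger repressor of light dependent germination, had 952 CPM in salt against 602 CPM in imbibed seeds (0.66 ± 0.16), and PIL5 (AT2G20180, also named PIF1), the factor above it, was at -0.29 ± 0.11. The light signalling median was -0.29 by total and 0.02 relative to the median gene. Circadian clock genes held a narrow range, with 16 of 17 kept, 0 past 2-fold in either direction and ratios from -0.79 for ELF4 (AT2G40080) to 0.69 for RVE8 (AT3G09600). Their median was 0.15, or 0.47 relative to the median gene, with 15 of the 16 above that gene and 1 at least 2-fold higher. In ΔDS seeds the clock median was 0.72 by total, with 4 genes at least 2-fold higher. Antioxidant genes split, with the cytosolic peroxidase APX1 (AT1G07890) at 4.62 CPM in salt against 32.7 CPM in imbibed seeds (-2.69 ± 0.22) and the seed peroxiredoxin PER1 (AT1G48130) at 2657 CPM in salt against 1356 CPM in imbibed seeds (0.97 ± 0.20). APX1 passed the filter through imbibed seeds alone, where it is high.

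Many heat shock genes had wide errors. Of 23 heat shock genes 20 were kept, with a median of -0.59. At least 2-fold higher were 2 (HSFA9 and Hsp70b) and at least 2-fold lower 9, beside 2.25% and 10.4% of all genes kept. Counted in the 9, AT1G07400, AT5G51440 and HSFA7A (AT3G51910), at -1.31 ± 0.82, -1.20 ± 0.66 and -1.25 ± 0.91, were within 2 SE of 0. Relative to the median gene 3 were at least 2-fold higher and 5 at least 2-fold lower, and in ΔDS seeds 4 were higher and 3 lower, with a median of -0.04. Hsp70b (AT1G16030) had 129.6 CPM in salt, 57.9 CPM in imbibed and 2997 CPM in dry seeds (1.15 ± 0.40). The lowest was HSP17.6II (AT5G12020), at 0.913 CPM in salt, 10.1 CPM in imbibed and 98.5 CPM in dry seeds (-2.90 ± 0.50). HSP17.6II passed the filter through imbibed seeds alone, and HSFA9 through salt seeds alone. The small heat shock gene AT1G59860 was at -2.31 ± 1.01 and the factor HSFB2A (AT5G62020) at -2.07 ± 0.23. HSP101 (AT1G74310), the disaggregase, had 848 CPM in salt against 624 CPM in imbibed seeds, and its ratio of 0.44 ± 0.61 was within 1 SE of 0. The factor HSFA2 (AT2G26150) was at 0.10 ± 0.86. All 5 kept chaperones of the endoplasmic reticulum had ratios below 0, as did most genes, with a median of -0.44 in +WT and -1.70 in ΔDS seeds. By total 2 were at least 2-fold lower, beside 10.4% of all genes kept. Relative to the median gene 0 were at least 2-fold lower, and the +WT median was -0.12. SHD (AT4G24190), an HSP90 of that compartment, had 129 CPM in salt against 295 CPM in imbibed +WT seeds (-1.19 ± 0.16), and 136 CPM in salt against 635 CPM in imbibed ΔDS seeds (-2.22 ± 0.16).

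Markers of seed tissues were examined because a whole seed holds embryo, endosperm and coat. Of 9 embryo and meristem markers 4 were kept, all with ratios below 0, as had most genes. Their median was -0.81, or -0.49 relative to the median gene, and their list summed to 186 CPM in salt, 343 CPM in imbibed and 142 CPM in dry seeds. The epidermal genes PDF1 (AT2G42840) and ATML1 (AT4G21750) were at -1.93 ± 0.26 and -0.79 ± 0.11, and WOX5, PLT1, PLT2, SHR and STM were under 5 CPM in both conditions. Of 5 endosperm markers 2 were kept, EPR1 (AT2G27380) at 29576 CPM in salt, 25510.3 CPM in imbibed and 41077 CPM in dry seeds (0.21 ± 0.21), and the mannanase gene MAN7 (AT5G66460) at -1.04 ± 0.15. Of 7 seed coat markers MUM4 (AT1G53500) alone was kept (-0.69 ± 0.17), with a list sum of 8.65 CPM in salt, 17.5 CPM in imbibed and 6.92 CPM in dry seeds. Their part in the other ratios was not tested.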

How the data were processed

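Libraries of 250 to 300 base inserts were read from both ends per the labels, and HISAT2, DESeq2 and TAIR10 are named, without versions, in the submitters' processing notes. The read counter, strand setting and gene models were not given in the sources used here. The 3 tables used are the authors' own comparisons of ΔDS with +WT, each over 6 libraries. Per the file headers they hold a mean of normalised coverage, a signal deposited by the authors, a log2 fold change and its error deposited by the authors, a Wald score deposited by the authors, and p-values deposited by the authors, which were not used. No header states which genotype is on top of the fold change, and ΔDS was taken to be, from the table titles. If it ran the other way, the values given as +WT would be those of ΔDS. Library depth is not given.

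The +WT mean was computed as 2 times the deposited mean over 1 plus 2 to the power of the log2 fold change, for 3 libraries a side. Levels were scaled to CPM, a pseudocount of 0.5 CPM was added and genes with at least 5 CPM in either condition were kept. All 279 organelle genes were at 0. Of 33602 identifiers 32835 matched RefSeq TAIR10.1, which gave symbols, products and promoters. The approximate SE assumes that both genotypes vary alike. On simulated tables (13077 genes, 200 changed 2-fold), 96.0% of ratios lay within 2 SE of the truth, 100% of changed genes were found beyond 2 SE, and 0.101% of unchanged genes passed 2-fold. Noise there was drawn with the same errors, so this does not show that those errors are right. Each gene was simulated around the geometric mean of its salt and imbibed levels, so genes near 0 in 1 condition were not simulated that low. No error of scaling between tables was added, and the SE was derived from the known simulated error. The rates therefore do not cover real ratios with a very low level in 1 condition.

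The 27 lists (625 entries, 26 written by hand) and the choice of genes were made with earlier results of these data known, and no list or motif count was tested. Genes named by rule were the 15 highest and 15 lowest ratios among protein-coding genes of at least 20 CPM, beyond 2 SE and of the same direction in ΔDS seeds, the 4 largest ratios and the most and least changed regulators of each list, and FLOE1 with its relatives. List genes under that rule that the text does not print are in the list counts and the plot of lists. Promoters were shown for named genes with the most copies and for 1 gene with neither core. Other list members were named after their values were seen. Alternatives were other scalings, pseudocounts, level filters and folds, removal of a trend over exon length (lowess, span 0.3) and swapped genotypes. Python 3.11.15, numpy 2.4.6, pandas 2.3.3, statsmodels 0.14.6 and matplotlib 3.10.9 were used.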

Additional observations from a re-analysis of the deposited data

How the results depend on the processing

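No paired analysis was possible because the tables give no values per library, and leaving out each replicate was not run for the same reason. Centred on the median gene, 517 genes were at least 2-fold higher and 726 at least 2-fold lower (294 and 1361 by total), the median was 0 by construction, and 2 lists had a median at least 2-fold higher and 3 at least 2-fold lower (1 and 5 by total). With the genotypes swapped, which reads the ΔDS libraries, the counts were 779 genes higher and 2797 lower, with 2 and 9 lists. At 4-fold, 28 genes were higher and 283 lower. A level filter of 1 CPM gave 2113 lower genes and one of 20 CPM gave 569. The other alternatives (no scaling between tables, totals without the 10 most abundant genes, a pseudocount of 1 or none, the trend over exon length, a filter on the mean, ratios beyond 2 SE and genes with a missing p-value) gave 278 to 349 higher and 1108 to 1525 lower genes, a median of -0.24 to -0.32, and 4 or 5 lists at least 2-fold lower. Of genes past 2-fold in +WT seeds, 2 of 290 higher and 6 of 1352 lower changed sign with the genotypes swapped, TSO2 and PIP2A among the lower, and 0 did so under the other scalings and pseudocounts or without the length trend. With 500 bases upstream in place of 250, a window chosen after seeing the data, the ABRE core was in 66.2% of promoters of 2-fold higher genes and 35.3% of all kept.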

Other observations

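Gene families outside the lists were grouped by their RefSeq product names, chosen after their values were seen, over families with at least 10 genes kept. The GDSL lipases had the lowest median among them, with 17 genes kept, 13 at least 2-fold lower (6 of them kept through imbibed seeds alone), 0 at least 2-fold higher and a median log2 ratio of -1.48 (-1.93 in ΔDS seeds), beside 10.4% of all genes kept that were at least 2-fold lower. Their levels summed to 381 CPM in salt, 882 CPM in imbibed and 71.4 CPM in dry +WT seeds. Kinases named leucine-rich repeat protein kinases numbered 42, of which 16 were at least 2-fold lower (7 of them kept through imbibed seeds alone), with a median of -0.87. Pentatricopeptide repeat (PPR) superfamily genes, most of which act on organelle RNA, numbered 140, with 5 at least 2-fold lower and a median of -0.40, near the -0.31 of all genes. The 8 kept small nucleolar RNA genes, which guide changes to ribosomal RNA, all passed the level filter through imbibed seeds alone, so that their ratios below 0 are fixed by the filter, and their levels summed to 16.9 CPM in salt against 59.8 CPM in imbibed seeds. MIR824 (AT4G24415), a microRNA gene that also passed the filter through imbibed seeds alone, had 2.14 CPM in salt, 27.8 CPM in imbibed and 0.139 CPM in dry seeds (-3.42 ± 0.22). Neither the labels nor the headers state how well these libraries capture such short RNAs.

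Of 21 jasmonate synthesis and JAZ repressor genes 10 were kept, 2 at least 2-fold lower, beside 10.4% of all genes kept, with a median of -0.57. The 2 were AOC4 (AT1G13280) at -1.01 ± 0.19 and JAZ6 (AT1G72450) at -1.52 ± 0.30, and JAZ6 passed the filter through imbibed seeds alone. Relative to the median gene 1 was at least 2-fold higher and 1 at least 2-fold lower, with a median of -0.25. AOS (AT5G42650), a committed step of jasmonate synthesis, had 28.8 CPM in salt against 51.7 CPM in imbibed +WT seeds (-0.84 ± 0.23), and 18.2 CPM in salt against 9.02 CPM in imbibed ΔDS seeds (0.98 ± 0.24). The difference between genotypes was not tested. MYC2 (AT1G32640), the factor that JAZ proteins hold back, was at -0.02 ± 0.15 in +WT seeds, and JAZ3 (AT3G17860) had 25.5 CPM in salt against 15.5 CPM in imbibed seeds (0.70 ± 0.13).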
